A study of Mus musculus with 8 samples.

Results

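The 8 mouse hearts of this RNA sequencing study were divided by how much atrial transcript their libraries held. The sides were chosen by the CPM of Myl7, the regulatory myosin light chain of atrial muscle cells, where CPM is the read count scaled to library size by the TMM method. Of the 8 hearts, 4 had Myl7 above 100 CPM (hearts 2 and 3, HVCN1 null, and hearts 5 and 7, wild type, WT) and 4 had it below 100 CPM (hearts 1 and 4, HVCN1 null, and hearts 6 and 8, WT). Each side therefore held 2 HVCN1 null and 2 WT hearts, and the division cut across the comparison that the study was built for.

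The animals were untreated male mice, 3 months old, with 4 in each group and 1 library per heart. The HVCN1 null mice (Hv1 null in the labels) lack the voltage-gated proton channel HVCN1, and the WT controls were of the C57BL/6 background. The tissue is given only as heart, and the sources used here do not say which chambers were taken. The p-values below for genotype measure the spread between these 8 hearts. Total counts ran from 25851255 to 38874640 per heart, and mitochondrial genes took 23.7% to 30.2% of them. Hvcn1 gave 6, 6, 1 and 3 counts in HVCN1 null hearts 1 to 4 and 102, 49, 99 and 68 counts in WT hearts 5 to 8, so every library matched its genotype label (log2 difference -4.20, SE 0.38, adjusted p = 0.000363, edgeR).

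The atria are the thin-walled receiving chambers of the heart. Their muscle cells use their own myosin light chains, contract and relax faster than ventricular cells, and store atrial natriuretic peptide in secretory granules. In the adult mouse Bmp10 is known as a secreted factor made mainly in the right atrium.

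The promoters of 4 atrial genes are shown because Myl7 made the division, Myl4 and Mybphl are atrial muscle genes that followed it by wide margins, and Bmp10 did not follow it. Each is the run of 250 bases before the start of the gene in RefSeq (GRCm38.p6), written 5′ to 3′ on the strand of the gene. Capitals mark matches on either strand to the GATA motif AGATAA, the TEAD motif CATTCC or the CArG box.
Myl7, chr11:5898783-5899032, minus strand: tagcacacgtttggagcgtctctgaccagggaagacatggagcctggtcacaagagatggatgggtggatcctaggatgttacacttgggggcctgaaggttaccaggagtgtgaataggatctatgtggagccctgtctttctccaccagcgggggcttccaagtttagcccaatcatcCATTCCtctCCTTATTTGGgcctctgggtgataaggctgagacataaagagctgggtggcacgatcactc
Myl4, chr11:104550413-104550662, plus strand: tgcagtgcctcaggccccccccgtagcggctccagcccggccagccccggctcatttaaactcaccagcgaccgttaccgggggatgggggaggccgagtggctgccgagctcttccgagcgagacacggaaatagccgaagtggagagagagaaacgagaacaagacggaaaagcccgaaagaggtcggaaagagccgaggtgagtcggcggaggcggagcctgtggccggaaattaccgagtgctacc
Mybphl, chr3:108364661-108364910, plus strand: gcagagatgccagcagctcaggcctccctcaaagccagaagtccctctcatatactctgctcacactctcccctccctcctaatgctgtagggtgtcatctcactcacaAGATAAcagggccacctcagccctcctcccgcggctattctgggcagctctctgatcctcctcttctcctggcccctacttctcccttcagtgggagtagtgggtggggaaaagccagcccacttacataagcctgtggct
Bmp10, chr6:87428744-87428993, plus strand: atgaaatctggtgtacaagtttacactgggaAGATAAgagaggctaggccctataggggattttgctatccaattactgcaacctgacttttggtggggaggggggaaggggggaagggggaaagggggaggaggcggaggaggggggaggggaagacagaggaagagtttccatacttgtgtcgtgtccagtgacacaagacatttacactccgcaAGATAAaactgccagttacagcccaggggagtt
In Myl7 the TEAD match began 70 bases and the CArG box 61 bases before the start. Mybphl held a GATA match 141 bases before its start, and Bmp10 held a pair of them, 219 and 33 bases before its start. None of the 6 motifs searched was found in the window of Myl4. The match of a few letters is a description and not a binding site.

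Myl7 itself (ENSMUSG00000020469, chromosome 11, 5896637 to 5898782 in GRCm38) was at 632, 609, 578 and 1185 CPM in hearts 2, 3, 5 and 7, and at 17.0, 33.6, 0.618 and 0.169 CPM in hearts 1, 4, 6 and 8. The nearest values on either side of the limit were 578 CPM in heart 5 and 33.6 CPM in heart 4, so no heart lay near 100 CPM. Since Myl7 chose the sides, every difference across them is given as a description without a test. The log2 differences below are those of hearts above minus hearts below, from an edgeR model that also held genotype. For Myl7 it was 6.99, and the means were 751 ± 291 CPM (SD, n = 4) above and 12.8 ± 15.9 CPM below. In bulk tissue fewer cells of a type and less RNA per cell cannot be told apart.

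The hearts below the limit were not alike. HVCN1 null hearts 1 and 4 kept 566 and 1188 counts of Myl7, while WT hearts 6 and 8 had 20 and 5. Taken within each genotype, the difference across the limit was 4.70 on the log2 scale in HVCN1 null hearts and 11.27 in WT hearts.

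Of the other 3 genes taken as markers of the division, Myl4 and Sln followed it and Bmp10 did not. Myl4, the essential myosin light chain of atrial muscle (ENSMUSG00000061086, chromosome 11), was at 843, 804, 632 and 1539 CPM in hearts 2, 3, 5 and 7 and at 28.2, 46.3, 2.07 and 1.35 CPM in hearts 1, 4, 6 and 8 (log2 difference 6.60). Sln encodes sarcolipin, the small protein that inhibits the calcium pump of the sarcoplasmic reticulum in atria (ENSMUSG00000042045, chromosome 9). It was at 111, 99.7, 118 and 242 CPM above and at 3.45, 5.28, 0.0309 and 0 CPM below (log2 difference 6.28). Heart 6 held 1 count of Sln and heart 8 none, where a count of 0 allows up to 0.101 CPM. For both genes the 2 sides were far apart, heart 7 was the highest of all, and the WT hearts below were the lowest.

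Bmp10 (ENSMUSG00000030046, chromosome 6) gave 15633 counts in heart 2 and 21695 in heart 7. It gave 1 count in heart 3 and 6 in heart 5, which is no more than the 6, 109, 6 and 6 counts of hearts 1, 4, 6 and 8. In CPM these were 418 and 574 in hearts 2 and 7, 0.0380 and 0.152 in hearts 3 and 5, and 0.180, 3.08, 0.185 and 0.203 in hearts 1, 4, 6 and 8. Only 2 of the 4 hearts above the limit thus carried the transcript, and heart 4, from below it, had the next highest level. Beside Myl7, which made the division, Myl4 and Sln therefore followed the name of atrium-containing hearts and Bmp10 did not, and the sides are called here by their Myl7 level. Gene counts cannot say which chamber was present, and the dissection was not recorded in the sources used here.

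**Figure D1:**
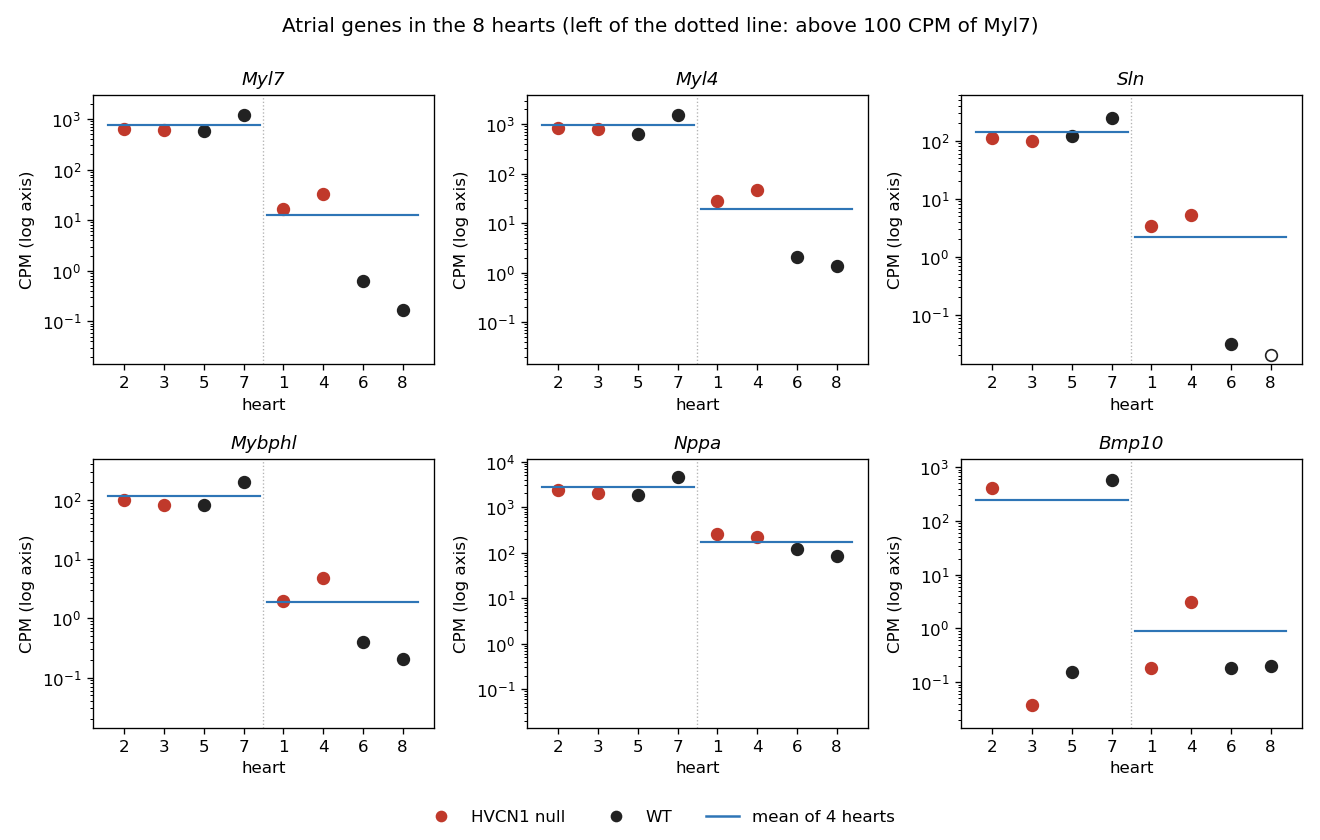
CPM (log axis) of 6 atrial genes in each of the 8 hearts, ordered by side of the Myl7 limit, with HVCN1 null hearts in red, WT hearts in black, the mean of each 4 hearts as a line, and an open circle for 0 counts. The first 5 genes are higher in all of hearts 2, 3, 5 and 7, while Bmp10 reaches 418 and 574 CPM in hearts 2 and 7 only and lies at 0.0380 and 0.152 CPM in hearts 3 and 5.

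A gene was called when the 4 hearts of one side all lay beyond the 4 of the other and the log2 difference was at least 1. Of the 14796 genes tested, 217 were called higher above the limit (1.47%) and 6 lower (0.0406%). Without the limit on the size, 531 genes were higher without overlap (3.59%) and 276 lower (1.87%), 807 in all (5.45%). The division was made with a gene of these libraries, so these counts measure its extent only. The median difference over all tested genes was -0.01.

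Of 19 genes known for atrial muscle, 18 passed the filter on low counts and 12 of them were called higher. Myl7, which made the division, is 1 of these 12, so its call was certain. The median difference of the 18 was 1.87, with 17 of 18 above 0, and Bmp10 was the member that the filter removed. Among all 14796 tested genes, 1.47% were called higher and 7081 were above 0. All 5 genes of contraction and calcium handling were called. Beside Myl7, Myl4 and Sln, these were Mybphl, which encodes a protein like the myosin binding proteins, and the protein kinase gene Sbk2. Mybphl stood at 98.8, 82.3, 82.3 and 199 CPM in hearts 2, 3, 5 and 7 and at 1.95, 4.89, 0.402 and 0.203 CPM in hearts 1, 4, 6 and 8 (log2 difference 6.08). Sbk2 kept more in the hearts below, with 45.7, 44.8, 45.9 and 112 CPM above and 5.22, 10.1, 6.92 and 7.16 CPM below (3.02).

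The secreted group was led by Nppa, the precursor of atrial natriuretic peptide. Its level was 2423, 2073, 1850.1 and 4629 CPM in hearts 2, 3, 5 and 7 and 259, 224, 119 and 83.1 CPM in hearts 1, 4, 6 and 8 (log2 difference 4.11). Dkk3, a secreted protein of the Dickkopf family, went from 81.0 to 298 CPM above against 1.96 to 11.8 CPM below (4.67). Pam, the amidating enzyme that is a main membrane protein of atrial granules, was at 1136 to 2453 CPM above and 491 to 553 CPM below (1.60). Pam was thus still abundant in every heart below the limit, while Dkk3 and Nppa fell to a small part of their level.

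Among the transcription factors, 2 of 4 were called. One of them was Tbx5, a T-box factor of the atria and the conduction system, at 40.1 to 89.2 CPM above against 27.7 to 31.8 CPM below (1.08). The COUP-TF genes Nr2f1 and Nr2f2 overlapped between the sides, with differences of 0.25 and 0.66. Among the channels and the connexin, also 2 of 6 were called. Gja5, the gap junction protein connexin-40, was at 30.1, 33.4, 28.7 and 55.6 CPM in hearts 2, 3, 5 and 7 and at 8.92, 12.8, 6.55 and 5.91 CPM in hearts 1, 4, 6 and 8 (2.14). Kcnj3, a subunit of the acetylcholine-activated potassium channel, differed by 1.06. Abcc8, the sulfonylurea receptor found in mouse atria, did not overlap but differed by only 0.55. Kcnj5, Cacna1d and Kcnk3 overlapped, and Kcnk3, a background potassium channel, was level at 326 to 364 CPM above and 294 to 374 CPM below.

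Atrial genes were also set against related genes within each heart, as ratios of CPM per kilobase of exon. These related genes were from the ventricular list, except for Nppb. Myl7 was 33.6%, 28.6%, 22.4% and 89.2% of Myl2, the ventricular regulatory light chain, in hearts 2, 3, 5 and 7. In hearts 1, 4, 6 and 8 it was 1.05%, 1.44%, 0.0271% and 0.00748%. The ratio of Myl4 to its ventricular counterpart Myl3 ran from 5.75% to 23.9% above and from 0.0120% to 0.393% below. The ratio of Sln to Pln, which encodes phospholamban, ran from 5.84% to 15.5% above and from 0% to 0.264% below. Nppa exceeded Nppb, the B-type peptide, 5.88- to 28.4-fold above and stood at 0.341- to 2.49-fold of it below. In every one of these ratios heart 7 was the highest and a WT heart below the limit was the lowest.

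None of the 10 ventricular genes tested was called, and 9 of them had differences under 0 (median -0.20). Of all 14796 tested genes, 1.47% were called higher, 0.0406% were called lower and 7715 were under 0. No call among 10 genes therefore says little by itself. Myl2 was at 6220, 7038, 8517 and 4392 CPM in hearts 2, 3, 5 and 7 and at 5326, 7709, 7535 and 7457 CPM in hearts 1, 4, 6 and 8 (-0.10). Hearts 7 and 1, 1 from each side, were the lowest for Myl2 and also for Myl3 (-0.21). Irx4, the ventricular transcription factor, differed by -0.27, and Myh7, the slow myosin heavy chain, by 0.92 with wide overlap. By their median (-0.20 against 1.87), the ventricular genes differed far less across the limit than the atrial ones did.

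Across all genes, the 217 called higher had log2 differences of at least 2 in 94 cases. By the rule for a call, each of the 217 had to be higher in both genotypes. Of them, 210 were protein coding (96.8%, against 92.2% of all tested genes). Heart 7 was the highest heart for 175 (80.6%, against 14.2% of all tested genes). The rule lets only hearts 2, 3, 5 and 7 be the highest for these genes, while any heart can be for the others, so these 2 shares are not alike. Their shares by chromosome ran from 0.573% of the tested genes on chromosome 13 to 2.27% on chromosome 15. RefSeq promoters were found for 158 of the 217 genes, 207 promoters in all. The GATA motif AGATAA stood in 8.70% of them and in 9.99% of all 32851 promoters, and the T-box motif AGGTGT in 11.6% and 11.8%. The TEAD motif CATTCC stood in 12.1% and 12.6%, and the nuclear receptor motif AGGTCA in 12.1% and 14.0%. The MEF2 motif was found in 2.90% and 2.92% and the CArG box in 1.93% and 1.47%. Both strands were searched over 250 bases, and the shares lay close to those of all promoters for each motif.

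**Figure D2:**
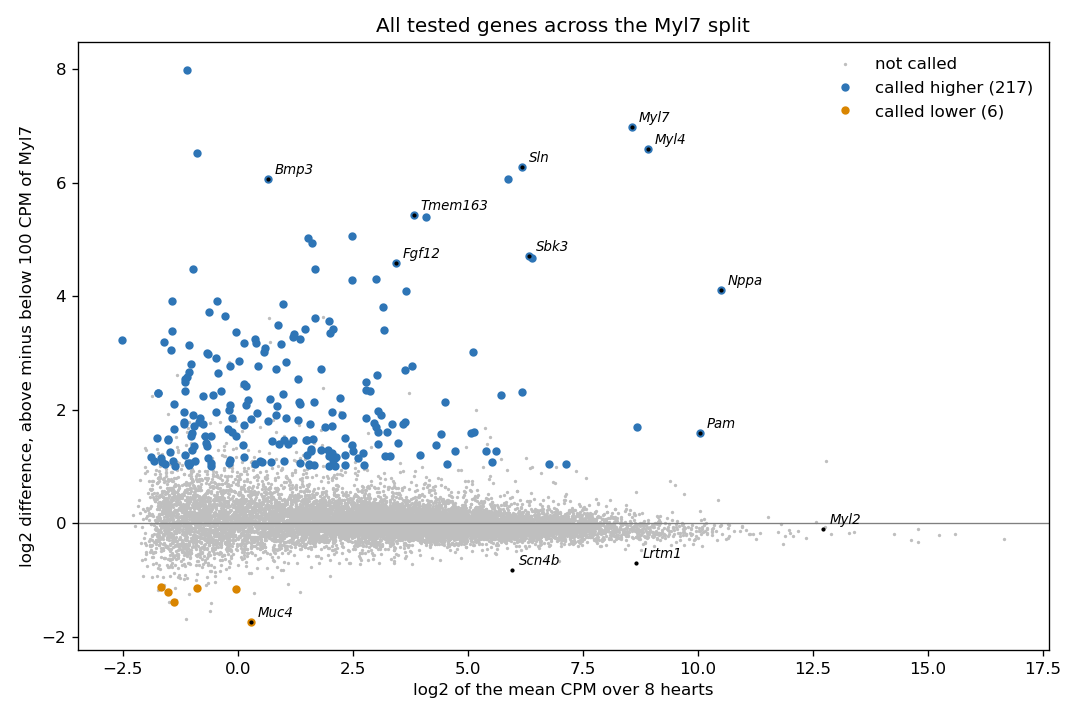
Log2 difference of hearts above minus hearts below 100 CPM of Myl7 for each of the 14796 tested genes, against the log2 of the mean CPM over the 8 hearts, with called genes in colour. Among the 217 genes called higher, Uts2b has the largest difference (7.99) at a low level, and Myl7 has 6.99 at a high level. The 6 called lower all have small mean levels, and the ventricular Myl2 lies at -0.10.

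Among protein-coding genes outside the lists with a mean of at least 1 CPM on the higher side, the 15 with the largest differences upward had differences of 3.87 to 6.52. Uts2b, which encodes a urotensin-related peptide and is named here after its values were seen, lay under that level, at 0.749, 1.52, 0.455 and 1.01 CPM in hearts 2, 3, 5 and 7 and at 0 in hearts 1, 4, 6 and 8. By role, 6 of them encode proteins of membrane transport or cell signalling. Kcnh7, a voltage-gated potassium channel of the ERG family, was at 0.696, 0.722, 0.759 and 2.12 CPM in hearts 2, 3, 5 and 7, with 1 count in heart 4 and none in hearts 1, 6 and 8. Fgf12, an intracellular regulator of sodium channels, was at 12.9 to 33.3 CPM above and 0.155 to 1.67 CPM below (4.59). Tmem163, a zinc transporter, was at 22.8, 22.2, 19.4 and 47.2 CPM in hearts 2, 3, 5 and 7 and at 0.510, 1.89, 0.0927 and 0.0338 CPM in hearts 1, 4, 6 and 8 (5.44). Rxfp1, the relaxin receptor, was at 6.53 to 18.8 CPM above and 0.0675 to 0.650 CPM below (5.07). Exons of Gja5, Kcnh7, Tmem163, Sds and Hvcn1 overlap those of Gpr89, Gca, Mgat5, Plbd2 and Tctn1 on the opposite strand, and how strand was treated in counting is not given in the sources used here, so part of their counts may come from those neighbours. Sphkap, an anchoring protein of protein kinase A, differed by 3.87, and Ppp1r1b, the phosphatase inhibitor DARPP-32, by 4.29. For all 6 genes heart 7 was the highest.

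A further 3 encode secreted proteins. Bmp3, a member of the bone morphogenetic protein family, was at 0.883, 1.63, 2.96 and 6.93 CPM in hearts 2, 3, 5 and 7, with 5 counts over the 4 hearts below (6.08). Cilp2, a cartilage intermediate layer protein, was at 18.5, 30.4, 26.6 and 58.5 CPM above and at 0.991, 1.72, 0.0618 and 0.270 CPM below (5.40). Hamp, which encodes the iron hormone hepcidin, was uneven among the hearts above, at 8.93, 2.24, 0.709 and 12.7 CPM in hearts 2, 3, 5 and 7 against 0.631, 0.396, 0.0618 and 0.0338 CPM in hearts 1, 4, 6 and 8 (4.49). Heart 5 exceeded heart 1 by little for Hamp, although the sides did not overlap.

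Sbk3, a kinase gene related to Sbk2, was at 141, 113, 108 and 255 CPM in hearts 2, 3, 5 and 7 and at 6.94, 12.5, 2.10 and 4.09 CPM in hearts 1, 4, 6 and 8 (4.71). Sds, the enzyme serine dehydratase, differed by 5.03, Mlana, a protein best known from pigment cells, by 4.94, and Lmntd1, which has a lamin tail domain, by 4.31. Car3, a carbonic anhydrase abundant in adipocytes and slow muscle, was at 23.9, 7.45, 4.76 and 59.6 CPM above and at 1.47, 3.42, 0.340 and 0.338 CPM below (4.10). Gata5, a zinc finger transcription factor, was at 2.81 and 1.90 CPM in hearts 2 and 7, at 0.418 and 0.380 CPM in hearts 3 and 5, and at 0 to 0.141 CPM below (3.93). Car3 and Gata5 were thus several times higher in hearts 2 and 7 than in hearts 3 and 5.

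Genes lower above the limit differed by less. Of the 10 protein-coding genes outside the lists with the largest falls, taken among genes without overlap and with a mean of at least 1 CPM on the higher side, only Muc4, a membrane mucin, was called. The other 5 genes called lower were Mbnl3, Fbxl21, Hmmr, Gm15626 and 4930517E14Rik, named after their values were seen, with differences of -1.38 to -1.12. Muc4 was at 0.642, 0.608, 0.430 and 0.555 CPM in hearts 2, 3, 5 and 7 and at 1.98, 1.27, 1.48 and 2.80 CPM in hearts 1, 4, 6 and 8 (-1.74). Scn4b, an auxiliary subunit of the cardiac sodium channel, was at 45.6, 31.7, 56.1 and 48.5 CPM above and at 71.5, 70.3, 84.5 and 92.4 CPM below (-0.82). Lrtm1, a membrane protein with leucine-rich repeats, was at 264 to 347 CPM above and 423 to 535 CPM below (-0.70). Bdh1, the mitochondrial enzyme of ketone body oxidation, was at 54.3 to 130.0 CPM above and 146 to 169.9 CPM below (-0.66). Irx1, a homeobox factor of the Iroquois family, differed by -0.65, and Hrh2, a histamine receptor, by -0.76. Gabrr2, Tmem150c, Nkain1 and 9930111J21Rik1, which shares exon sequence with Psme2b on the same strand, had differences of -0.79 to -0.63. The widest fall without overlap, that of Muc4, was far narrower than the rises of Myl7 (6.99) and Nppa (4.11). It was wider than the rises of the atrial genes Pam (1.60), Tbx5 (1.08) and Kcnj3 (1.06).

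Of the 12 genes of the sinus node and conduction system, 9 were tested and 1 was called higher, against 1.47% of all tested genes. Cacna1g, a T-type calcium channel, did not overlap but differed by 0.36. Hcn4, the main pacemaker channel of the node, overlapped at 6.76 to 16.9 CPM above and 6.91 to 17.9 CPM below, and the nodal factor Isl1 gave 1 count in all 8 hearts. The median of the list was 0.21.

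Beyond Nppa and Pam, the natriuretic peptide pathway differed at 1 gene. Npr3, the clearance receptor, was at 47.8, 18.0, 22.6 and 61.0 CPM in hearts 2, 3, 5 and 7 and at 14.6, 13.6, 17.4 and 16.2 CPM in hearts 1, 4, 6 and 8 (1.27). Hearts 3 and 5 were only just above the hearts below the limit. Nppb (-0.11), the receptors Npr1 (0.08) and Npr2 (0.00) and Corin, the protease that cleaves the Nppa precursor (0.17), overlapped. In all 3 of 7 tested genes were called higher, against 1.47% of all tested genes, with a median of 0.17.

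The muscarinic pathway that slows the heart through G protein-gated potassium channels gave 1 called gene of 8, Kcnj3 (median 0.30). Of all tested genes, 1.47% were called higher. Kcnj3 was at 146, 106, 102 and 238 CPM in hearts 2, 3, 5 and 7 and at 60.3, 77.1, 59.4 and 85.6 CPM in hearts 1, 4, 6 and 8. Gnao1, a G protein alpha subunit, did not overlap at 0.99, just under the limit, while Gnai2, another alpha subunit, was level (0.01). The muscarinic receptor Chrm2 (0.25) and the regulators Rgs4 (-0.11), Rgs6 (0.34) and Gnb5 (-0.05) overlapped.

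**Figure D3:**
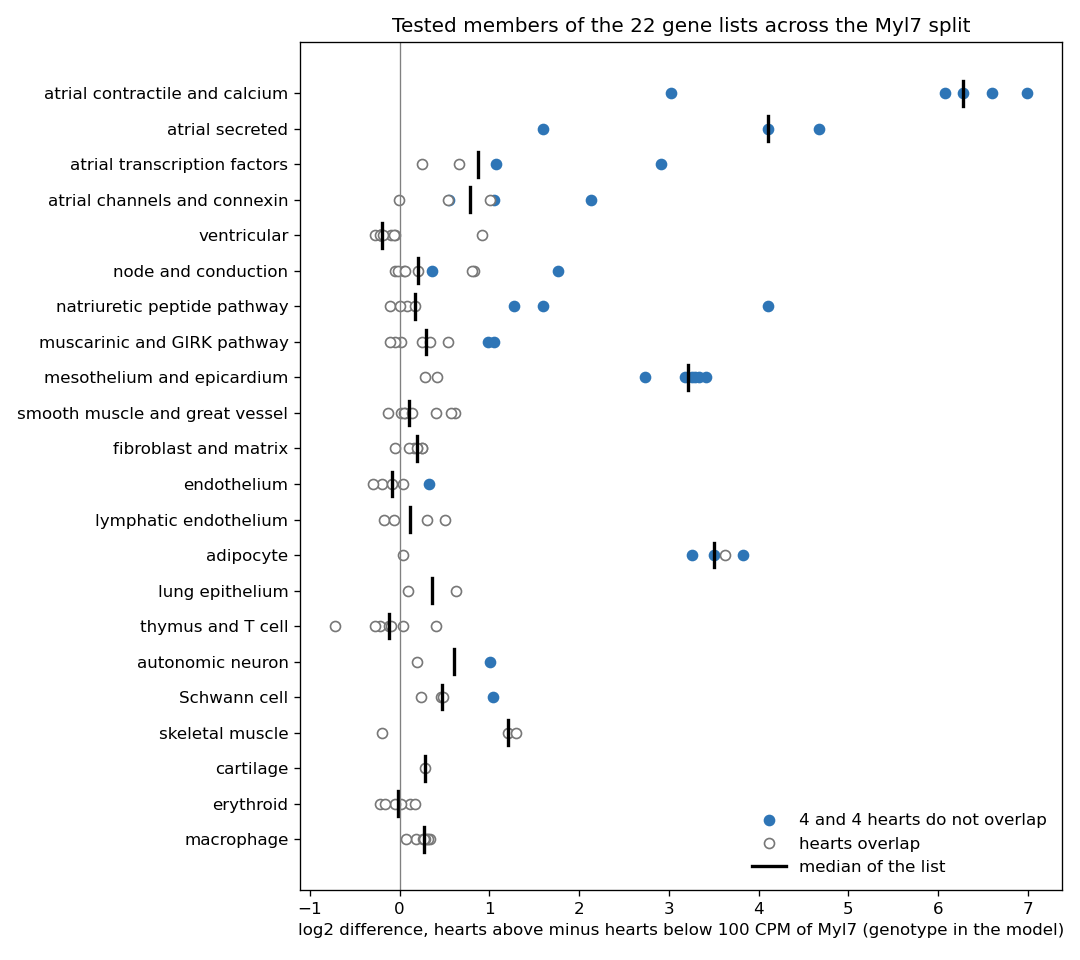
Log2 difference of hearts above minus hearts below 100 CPM of Myl7 for the tested members of 22 gene lists, with filled points where the 4 and 4 hearts do not overlap and a bar at each list's median. The atrial contractile list, which includes Myl7, and the atrial secreted list have medians of 6.28 and 4.11. Those of the mesothelium, adipocyte and ventricular lists are 3.22, 3.50 and -0.20.

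Markers of 2 tissues other than heart muscle moved with the division. Of 8 tested mesothelium and epicardium genes, 6 were called higher, against 1.47% of all tested genes. The median of the list was 3.22, and its summed level was 25.7 to 81.1 CPM above and 10.9 to 18.3 CPM below. Upk3b, a mesothelial membrane protein, was at 24.0, 6.76, 7.21 and 27.7 CPM in hearts 2, 3, 5 and 7 and at 1.14, 1.27, 2.72 and 1.11 CPM in hearts 1, 4, 6 and 8 (3.42). Msln, which encodes mesothelin, was at 6.96, 3.31, 3.37 and 10.9 CPM above and at 0.871, 0.791, 1.39 and 0.608 CPM below (2.73). Upk1b, Lrrn4, Krt19 and Muc16 differed by 3.18 to 3.34, while Wt1 (0.29) and Aldh1a2 (0.41), both also known from the epicardium, overlapped. No tested member of the list was at 0 in any heart.

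Of 9 adipocyte genes 5 passed the filter on low counts, and 3 of them were called higher, against 1.47% of all tested genes. The median of the 5 was 3.50. The summed level of the list was 31.1 to 92.4 CPM above and 17.7 to 28.7 CPM below. Cfd, the adipocyte protease adipsin, was at 16.5, 7.22, 6.43 and 36.1 CPM in hearts 2, 3, 5 and 7 and at 1.47, 2.91, 0.247 and 0.270 CPM in hearts 1, 4, 6 and 8 (3.82). The lipid droplet proteins Plin1 (3.26) and Cidec (3.50) were also called. Adipoq, which encodes adiponectin, overlapped, since heart 5 had 0.152 CPM and heart 4 had 0.565 CPM, and Cidea was level (0.03) and made up most of the summed level in the hearts below. Among the brown fat genes, Ucp1 gave 27 counts in heart 2, 190 in heart 7 and none in the other 6 hearts. Elovl3 was found in heart 7 alone, with 11 counts. Exons of Elovl3 overlap those of Pitx3 (112 counts) on the opposite strand, so part of its counts may come from that neighbour. The part of mesothelium and fat in the other genes that differ across the limit was not tested.

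Most of the remaining lists had medians near 0. Of all tested genes 1.47% were called higher and 0.0406% lower, so the lack of a called gene in a short list says little. No gene was called among 8 smooth muscle genes (median 0.10), 8 fibroblast genes (0.19), 5 endothelial genes (-0.08), 4 lymphatic genes (0.12), 6 erythroid genes (-0.02) and 8 macrophage genes (0.27). The macrophage genes were all above 0 but overlapped. Of the autonomic neuron list, 2 of 8 were tested and Dbh, the enzyme that makes noradrenaline, was called at 4.18 to 6.90 CPM above and 2.19 to 3.67 CPM below (1.01), while Chat was at 0 in every heart and Th gave at most 0.0529 CPM. Of 5 Schwann cell genes only Mbp was called (1.04, list median 0.48). Lung epithelium (2 of 8 tested), thymus and T cell (7 of 10), skeletal muscle (3 of 7) and cartilage (1 of 5) gave no called gene. Their medians were 0.36, -0.12, 1.21 and 0.28, that of skeletal muscle resting on 3 genes of which Tnnt3 and Actn3 overlapped at differences of 1.21 and 1.29, and the lung genes Sftpb and Cldn18 were at 0 in every heart. Summed levels of these 4 lists stayed between 0.742 and 7.29 CPM in all hearts.

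Hearts 2 and 7, which alone carried Bmp10 at high level, also stood highest for the mesothelium list, at 61.6 and 81.1 CPM, against 25.7 and 29.8 CPM in hearts 3 and 5. For the adipocyte list they were at 48.0 and 92.4 CPM, against 33.7 and 31.1 CPM in hearts 3 and 5. A search, made after these values were seen, asked which genes had the lower of hearts 2 and 7 at least 4 times the highest of the other 6 hearts, with at least 10 counts in both. Of 14544 genes with enough counts, 7 met it (0.0481%). Beside Bmp10 and Ucp1, these were Cd207, the Langerhans cell lectin langerin, Acsm3, an acyl-CoA synthetase, Cxcl13, a chemokine that attracts B cells, Esyt3, an extended synaptotagmin, and Gata5. Bmp10 stood apart with 136 times the highest other heart, followed by Cd207, which was at 2.89 and 3.57 CPM in hearts 2 and 7 and at most 0.228 CPM elsewhere (12.7 times). Cxcl13 was at 3.58 and 7.49 CPM in hearts 2 and 7 and at most 0.709 CPM in any other heart (5.06 times).

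With hearts 2 and 7 left out, 167 genes were called higher, 131 of which were among the 217, and 44 were called lower. In the main setting 217 of 14796 tested genes were called higher and 6 lower. With only hearts 3 and 5 above, a gene can lie without overlap more easily by chance than with 4 and 4 hearts. Without hearts 2 and 7, 10 of the 18 atrial genes (Myl7 included, median 1.56), 6 mesothelium genes (median 1.89) and 3 adipocyte genes (median 2.21) were called higher. The main setting tested 8 mesothelium and 5 adipocyte genes. Without heart 7 alone, 186 of the 217 were still called. Apart from a change in scaling, leaving out hearts from above the limit cannot make the sides overlap. A call can then be lost mainly through the log2 limit or the filter, so most of the kept calls were fixed in advance.

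**Figure D4:**
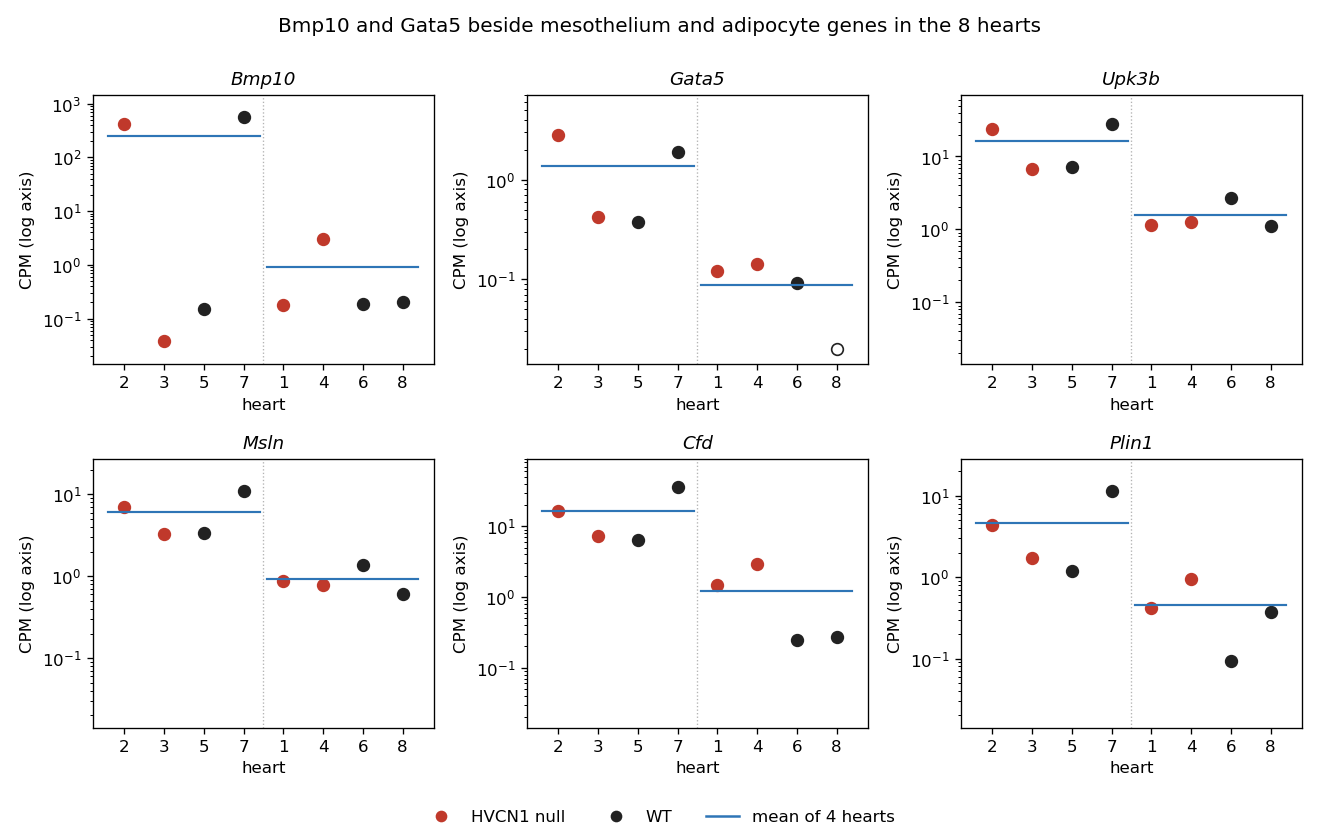
CPM (log axis) of Bmp10, Gata5, 2 mesothelium genes and 2 adipocyte genes in each heart, ordered by side of the Myl7 limit, with HVCN1 null hearts in red, WT hearts in black and the mean of each 4 hearts as a line. All 6 genes are highest in hearts 2 and 7, with Gata5 at 2.81 and 1.90 CPM there and at most 0.418 CPM elsewhere.

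Genotype was tested with edgeR, since it comes from the labels. Of the 14796 genes, 169 differed between HVCN1 null and WT hearts (1.14%, adjusted p under 0.05), 110 of them higher in HVCN1 null hearts (0.743%) and 59 lower (0.399%), and 1625 had an unadjusted p under 0.05. None of the 18 atrial genes was among them, with edgeR or with DESeq2, and none had an unadjusted p under 0.05 with edgeR. The smallest adjusted p among the 18 was 0.851 (edgeR), for Nr2f1. The atrial genes were lower in HVCN1 null hearts in 14 of 18 cases, with a median difference of -0.24 against -0.01 over all genes. Myl7 averaged 323 ± 344 CPM (SD, n = 4) without HVCN1 and 441 ± 566 CPM in the WT controls, a log2 difference of -0.45 with an SE of 1.76 (adjusted p = 0.975, edgeR). Within each genotype the spread of Myl7 was thus larger than its mean, and with an SE of this size a difference of several-fold was not detectable.

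With the Myl7 division as a covariate, the standard errors of the genotype difference became smaller for the atrial genes. Their median went from 0.600 to 0.289, while that of all genes went from 0.141 to 0.135. Of the 18 atrial genes, 12 were called across this same division, so the fall of their standard errors is a description. Myl7 made this covariate, so its own value in the model is a description too. None of the other 17 passed the test in this model either (smallest adjusted p = 0.541, for Myl4, edgeR), and none had an unadjusted p under 0.05. For Myl7, Myl4, Sln, Mybphl, Nppa, Dkk3, Gja5 and Cacna1d the sign of the genotype difference turned with the covariate, for Myl7 from -0.45 to 1.82 with an SE of 1.14.

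**Figure D5:**
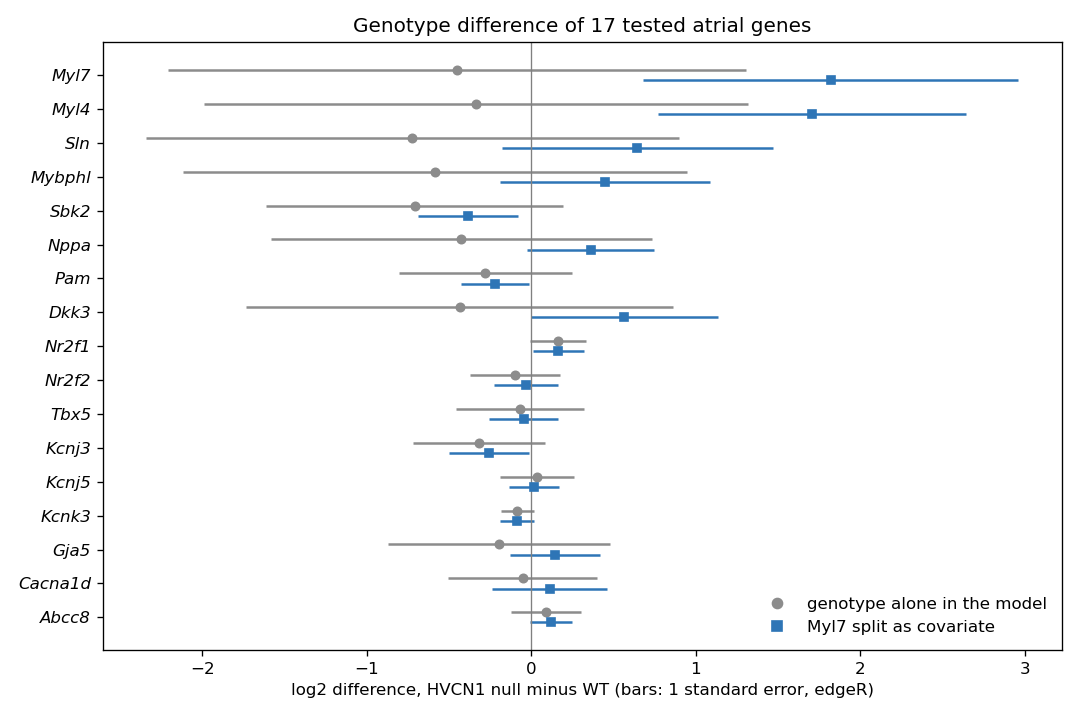
Log2 difference of HVCN1 null minus WT hearts for 17 of the 18 tested atrial genes, with bars of 1 standard error from edgeR, for genotype alone (grey circles) and with the Myl7 division as a covariate (blue squares). The median standard error over the 18 is 0.600 without and 0.289 with the covariate, and for Myl7 the value moves from -0.45 to 1.82.

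Across all genes the covariate raised the number of genes past the test from 169 to 222 (1.50%), of which 167 were the same genes, 2 were lost and 55 were gained. With the log2 Myl7 CPM as the covariate instead, 188 genes passed, of which 140 were the same, 29 were lost and 48 were gained. Of the 55 genes gained with the division as the covariate, only 1 was itself called across it. Myl1, the essential light chain of fast skeletal muscle, was among those 55, chosen here after its values were seen. Myl1 differed by 1.99 across the limit with overlap, and was not called. It was at 4.56, 32.1, 12.8 and 3.90 CPM in hearts 1 to 4 and at 51.4, 30.7, 126 and 26.4 CPM in hearts 5 to 8. Its genotype difference was -2.13 with an SE of 0.69 (adjusted p = 0.247, edgeR) and -2.33 with an SE of 0.34 with the covariate (adjusted p = 0.0104, edgeR). Genotype and the division took like shares of the variance of log2 CPM over all tested genes, 28.1% and 27.1%. Any division of 8 hearts into 4 and 4 takes some share, which was not subtracted, and Myl7 of these libraries made the division.

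Of the listed genes, Acta2, Cx3cr1 and Aldh1a2 had the smallest p for genotype. Acta2, smooth muscle actin, averaged 261 ± 101 CPM in the HVCN1 null group against 105 ± 18.9 CPM (SD, n = 4 and 4), a log2 difference of 1.32 with an SE of 0.26 (adjusted p = 0.0466, edgeR). This call was lost when heart 1, 3, 5, 6, 7 or 8 was left out. Its difference across the Myl7 limit was 0.06. Aldh1a2, the enzyme that makes retinoic acid, differed by -0.93 (adjusted p = 0.101 without and 0.0458 with the covariate, edgeR). Cx3cr1, the fractalkine receptor of macrophages, differed by -0.92 (adjusted p = 0.0561 and 0.0581, edgeR).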

How the data were processed

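RNA of 8 mouse hearts was sequenced after poly-A selection, with 1 library per heart. The submitters' processing notes name STAR, featureCounts and the mm10 (GRCm38) build, with versions and the strand setting not given in the sources used here. The study's methods name the genome of another species, while the deposited identifiers are those of mouse genes. The authors deposited raw read counts, not normalized, for 39056 genes, of which 38872 matched GENCODE M21 on GRCm38.

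TMM scaling, filterByExpr (14796 genes kept) and quasi-likelihood tests were run with edgeR 4.0.16 in R 4.3.3, and DESeq2 1.42.0 was an alternative. Adjusted p-values follow Benjamini and Hochberg over all kept genes. CPM is the count over the scaled library size. Differences across the Myl7 limit of 100 CPM came from a model of genotype and side and carry no test. A count of 0 allows up to 3 counts. Flags used log2 CPM with a prior count of 2. The fits were tested on simulated data, and tables and plots were made with Python 3.11.15, pandas 2.3.3 and matplotlib 3.10.9.

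The genes named are the markers, Hvcn1, the listed genes, the 3 listed genes with the smallest p for genotype, and the 15 protein-coding genes outside the lists that were higher and the 10 that were lower by the widest margin without overlap, with the same sign in both genotypes and at least 1 CPM on the higher side. The division of the hearts, the lists and the rules were chosen with earlier results of these data known. Alternatives were RLE or no scaling, no filter, a filter at 1 CPM in at least 4 hearts, DESeq2, other limits, no genotype term, the Myl7 level as a covariate, each heart left out in turn, and, chosen after seeing the data, hearts 2 and 7 left out together. No batch is given by the labels. RT-PCR values were not used here. A few genes are not reported here by name, though lists and totals include them.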

Additional observations from a re-analysis of the deposited data

Results flagged for a closer look

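Within each side of the Myl7 limit, the gap between the highest or lowest heart and its neighbour was compared with the range of the 4 hearts on log2 CPM. Of 296 such groups, 17 passed Dixon's 95% critical value, and chance passes about 1 in 20. Among the hearts above the limit, heart 7 stood out as high for Myl7 (gap over range 0.875), Sbk2 (0.973) and Kcnh7 (0.924), heart 3 as low for Dcn (0.833) and Pdpn (0.865), and heart 5 as low for S100b (0.893). Among the hearts below it, heart 1 stood out as low for Myl2 (0.910), Myl3 (0.893) and Nkain1 (0.893), and as high for Tbx3 (0.923) and Dcn (0.836). Heart 6 was high for Upk3b (0.854) and low for Hey2 (0.836) and Sphkap (0.870). Heart 8 was high for Myocd (0.890), and heart 4 for Dbh (0.899) and Kcnh7 (1), the last by a single count.

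For 2 listed genes, the difference across the Myl7 limit went one way in both HVCN1 null hearts above it and the other way in both WT hearts. For Irx5 it was 0.23 in HVCN1 null and -0.34 in WT hearts on the log2 scale, a gap of 0.578. For Sox10, the Schwann cell factor, it was -0.30 and 0.88, a gap of -1.18. Neither gap was tested.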

How the results depend on the processing

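The number of genes called higher across the Myl7 limit (217) was 335 without a filter, 137 with a filter at 1 CPM in at least 4 hearts, 377 with a log2 limit of 0.5 and 94 with a limit of 2. It ran from 193 to 327 with 1 heart left out, the highest without heart 1. The number called lower (6) was 72 without a filter, 1 with the filter at 1 CPM, 32 and 0 with limits of 0.5 and 2, 44 without hearts 2 and 7, and 5 to 27 with 1 heart left out, namely 16, 14, 27, 11, 13 and 12 without heart 2, 3, 4, 5, 6 and 7. Genes past the test for genotype (169) numbered 466 with DESeq2 and 71 to 152 with 1 heart left out, with 99, 103, 92, 71 and 104 left without heart 1, 3, 5, 6 and 8. Listed genes past it (1) numbered 0 with unscaled libraries, 2 without a filter, 6 with DESeq2, 2 with either Myl7 covariate and 0 to 3 with 1 heart left out. The share of variance by genotype was 36.02% over the 500 genes of largest variance and 27.24% to 34.11% with 1 heart left out. That of the division was 35.95% and 25.27% to 32.54%. The causes of these moves were not tested, apart from the numbers of genes, limits and hearts that the alternatives change themselves. No called value changed sign. For single genes, 1978 of the alternative values across the limit moved by less than that spread and 40 by more, and for list medians 288 and 16. No paired analysis was made, because the sources used here give no pairing of HVCN1 null with WT hearts.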
